A study of Mus musculus with 24 samples.

Results

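Cav1, Cav2 and Ptrf encode structural proteins of caveolae, and all 3 genes were found among the 13534 genes of the whole-cell table and among the 11568 genes of the table of nuclear and cytoplasmic fractions. They were chosen by symbol. Cav2 was picked because it was strongly recovered with miR-29b, so its values are described here without a test. Cav1 (ENSMUSG00000007655) lies on chromosome 6 from 17306335 to 17341328 and Cav2 (ENSMUSG00000000058) on chromosome 6 from 17281185 to 17289130 of GRCm38, with 17204 bases between the end of Cav2 and the start of Cav1. Ptrf (ENSMUSG00000004044), whose current symbol is Cavin1, lies on chromosome 11 from 100956736 to 100970617.

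The study asked which RNAs are recovered with a mimic of a microRNA. NIH3T3 is an established fibroblast line derived from mouse embryos. Its cells received 10 nM of a miR-29b mimic or of a scrambled mimic, and both mimics carried CNVK (3-cyanovinylcarbazole nucleoside), which light can crosslink to a base on the opposite strand. RNA was collected 8 h after fresh medium had been added, which was 24 h after transfection. The 4 whole-cell groups had 4 libraries each, namely the miR-29b pulldown, the scrambled pulldown, the miR-29b input and the scrambled input. Each was also made once from nuclei and once from cytoplasm, giving 8 fraction libraries. All cells, inputs included, therefore carried a transfected mimic, and no group was left untransfected. Libraries came from 5 ng of RNA, except that miR-29b input replicate 4 had 6 ng. The labels do not say whether replicates were separate cultures, so a p-value here reflects only how these samples vary, and that variation may be technical.

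Caveolae are small flask-shaped pits of the plasma membrane that are abundant in fibroblasts, endothelium, fat and muscle. Caveolin-1, the product of Cav1, inserts into the inner leaflet, binds cholesterol and oligomerises into the coat. Caveolin-2, the product of Cav2, forms hetero-oligomers with caveolin-1 and depends on it to reach the cell surface. Cavin-1, the product of Ptrf, is a peripheral protein that joins the caveolin scaffold from the cytosol and is required for caveolae to form. MicroRNAs guide Argonaute proteins to messenger RNAs, mainly through pairing of the seed with sites in the 3′ untranslated region.

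The mature microRNA that the mimic is named after is shown with its family members, because predicted sites are defined by the seed, which the family shares. The sequences are from RefSeq (GRCm38.p6), 5′ to 3′, with the seed, bases 2 to 8, in capitals.
mmu-miR-29b-3p: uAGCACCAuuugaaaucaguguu
mmu-miR-29a-3p: uAGCACCAucugaaaucgguua
mmu-miR-29c-3p: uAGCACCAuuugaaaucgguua
Over the first 22 bases miR-29a-3p differed from miR-29b-3p at 4 positions and miR-29c-3p at 3, all outside the seed. A site that pairs with the whole seed and carries an A opposite base 1 reads UGGUGCUA, an 8-base site. In the authors' deposited table, whose column names point to TargetScan predictions, Cav2 is marked as having a predicted miR-29 site, an 8-mer among them, and Cav1 and Ptrf are marked as having none. Any such site was marked for 3.76% of the 13534 genes and an 8-mer for 1.09%. The transcript sequence around the Cav2 site was not used here.

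The counts listed per whole-cell library summed to 7409157 to 55153996, and those per fraction library to 5320421 to 20142591. The authors' headers group replicates 1 to 3 as lysed and replicate 4 as intact, so the intact set has 1 library per group. Replicate 4 stood apart on the third principal component in both inputs and in the miR-29b pulldown (64.96 to 76.17, against −14.8 in the scrambled pulldown). On the first component, miR-29b input replicate 4 was at 28.99, against −61.73 to −57.87 for the other replicates of that input. Scrambled input replicate 4 was at −26.75, against −54.97 to −52.15 for its other replicates, and the miR-29b pulldown libraries were at 61.39 to 137.88. For 489 genes of at least 5 CPM, replicates 1 and 2 of the miR-29b pulldown were over 2-fold apart, and for 483 of them the value of replicate 3 fell in that gap. Results are therefore also given for replicates 1 to 3 alone and for replicates 1, 2 and 4 alone. The share of such genes expected for independent libraries was not computed, and whether replicate 3 varied independently of replicates 1 and 2 was not tested. If it did not, p-values from fits that hold all 3, those of replicates 1 to 3 among them, would be too small. Of 12 fibroblast markers 11 were measured, and their summed levels were 9081 to 15890 CPM in the miR-29b pulldown, 4121 to 4913 CPM in the scrambled one, 4485 to 7512 CPM in the miR-29b input and 4527 to 5504 CPM in the scrambled input. The intermediate filament gene Vim had 953.4 to 2150 CPM over all libraries, whereas Dcn and Postn stayed at or under 3 CPM and Thy1 at or under 13.8 CPM. The collagen gene Col1a1 averaged 4875 CPM in the miR-29b pulldown, against 377.3 CPM in the scrambled one, and it is part of that sum. CPM are the listed counts scaled to library size with TMM factors. Of other cell types rich in caveolae, endothelium had 1 of 7 markers measured, at 0 to 6.82 CPM over all libraries. Of 7 adipocyte markers 6 were measured, with summed levels of 1149 to 4050 CPM in the miR-29b pulldown, 927.5 to 1491 CPM in the scrambled pulldown, 449.9 to 1286 CPM in the miR-29b input and 323.3 to 1084 CPM in the scrambled input. Lpl ranged from 121 to 3745 CPM over all libraries, Fabp4 from 73.11 to 255.4 CPM and Pparg from 36.03 to 241.3 CPM, while Adipoq and Plin1 stayed under 4 CPM and Cidec under 7 CPM in every library. The part of these markers in the results below was not tested.

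Cav2 was the most strongly recovered of the 3 genes. In replicates 1 to 4 its level was 400.5, 622.1, 495.3 and 893.7 CPM in the miR-29b pulldown, against 18.27, 32.26, 29.5 and 30.14 CPM in the scrambled pulldown. All miR-29b pulldown libraries lay above all scrambled ones. The share of all genes whose libraries separate in this way was not computed, so here and below such separation is only a description. Pulldown levels are of recovered RNA and are not levels per cell. For input levels, fewer cells with a transcript and less of it per cell cannot be told apart in bulk libraries. The pulldown means were 602.9 ± 214.1 CPM and 27.54 ± 6.29 CPM (SD, n = 4 each), a 21.8-fold difference (log2 4.45 ± 0.55 SE), which ranked 40th of 12915 genes. Cav2 stood at 35.98, 42.5, 35.57 and 208.9 CPM in the miR-29b input, and at 42.12, 44.73, 45.47 and 51.08 CPM in the scrambled input. Replicate 4 of the miR-29b input was thus 5.87 times the lowest input of its mimic, while replicates 1 to 3 reached into the low end of the scrambled inputs. Over its own input, the miR-29b pulldown held 7.46 times as much Cav2 (log2 2.90 ± 0.51 SE), and the libraries did not overlap.

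The mimic-specific change divides this pulldown over input ratio by the same ratio with the scrambled mimic. For Cav2 it was 12.4-fold (log2 3.63 ± 0.69 SE), the 47th highest of 12915 genes. It was 4.47 ± 0.30 in replicates 1 to 3 and 4.80 once miR-29b input replicate 4 was left out, so that library alone lowered it by over 1 on the log2 scale. With replicates 1, 2 and 4 it was 3.49 ± 0.85. Without the same input library, the miR-29b pulldown over its input reached 4.03.

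Cav1 was also higher in the miR-29b pulldown, by less than Cav2. In replicates 1 to 4 it stood at 285.6, 436.8, 347.3 and 814.1 CPM in the miR-29b pulldown, against 72.27, 168.5, 153.5 and 141.7 CPM in the scrambled pulldown. The groups did not overlap, and the intact replicate was the highest of the miR-29b libraries. Cav1 rose 3.51-fold between the pulldowns (log2 1.81 ± 0.37 SE, n = 4 per group, edgeR adjusted p = 0.000775), where 24.5% of all genes tested passed as higher. The change was 1.45 in replicates 1 to 3 (edgeR adjusted p = 0.00035) and 2.01 in replicates 1, 2 and 4 (edgeR adjusted p = 0.00831).

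In the inputs Cav1 had 205, 221.5, 224.3 and 442.2 CPM in the miR-29b input and 163.5, 171, 163.2 and 276.3 CPM in the scrambled input. Replicate 4 was the highest library of both inputs. The mimic-specific change of Cav1 was 1.31 ± 0.50 on the log2 scale and missed the threshold (edgeR adjusted p = 0.0675), while 17% of all genes passed as higher. It passed in replicates 1 to 3 (log2 1.08, edgeR adjusted p = 0.0265), when leaving out miR-29b input replicate 4 (log2 1.74, edgeR adjusted p = 0.0119), when leaving out miR-29b pulldown replicate 1 (log2 1.495, edgeR adjusted p = 0.0395), with the authors' library totals (log2 1.59, edgeR adjusted p = 0.0499) and with DESeq2 (log2 1.32, adjusted p = 0.0432), but not in replicates 1, 2 and 4 (log2 1.49, edgeR adjusted p = 0.19). The mimic-specific change of Cav1 also missed the threshold with upper-quartile factors (log2 1.06, edgeR adjusted p = 0.125) and RLE factors (log2 1.32, edgeR adjusted p = 0.0752). The same held without a filter (edgeR adjusted p = 0.0672) and with a filter of 2 CPM in 4 libraries (edgeR adjusted p = 0.0727). Leaving out 1 library at a time, its edgeR adjusted p ranged from 0.0119 to 0.136. The miR-29b pulldown over its own input gave 0.79 ± 0.36 for Cav1 (edgeR adjusted p = 0.0773), and 28.4% of all genes passed as higher there. With the replicate number as a block in the fit of all 16 libraries, it passed (log2 0.75, edgeR adjusted p = 0.0103). That fit included the scrambled pulldown, which did not meet the rule for pairs given below. Cav1 also passed in this comparison when leaving out miR-29b input replicate 4 (log2 1.16, edgeR adjusted p = 0.0125) or without replicate 1 of the miR-29b pulldown (log2 0.96, edgeR adjusted p = 0.0397). It passed in replicates 1 to 3 (log2 0.75, edgeR adjusted p = 0.0183) and with the authors' library totals (log2 1.14, edgeR adjusted p = 0.0265). It missed the threshold in replicates 1, 2 and 4 (log2 0.83, edgeR adjusted p = 0.192) and in the fit of only these groups (log2 0.71, edgeR adjusted p = 0.213). Upper-quartile factors (log2 0.54, edgeR adjusted p = 0.215) and DESeq2 (log2 0.79, adjusted p = 0.0625) also gave no call.

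Ptrf went the other way. In replicates 1 to 4 its level was 60.23, 55.89, 59.06 and 45.79 CPM in the miR-29b pulldown, against 125, 106.5, 103.4 and 110.6 CPM in the scrambled pulldown. No miR-29b library reached the lowest scrambled one. Ptrf was 2.02-fold lower in the miR-29b pulldown (log2 −1.01 ± 0.19 SE, n = 4 per group, edgeR adjusted p = 0.000453), where 20.9% of all genes passed as lower. It passed as lower in replicates 1 to 3 (log2 −0.93, edgeR adjusted p = 9.7e-06) and in replicates 1, 2 and 4 (log2 −1.08, edgeR adjusted p = 0.00808).

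In the inputs Ptrf had 98.8, 113.5, 108.3 and 53.76 CPM with miR-29b and 79.97, 87.13, 82.89 and 81.74 CPM with the scrambled mimic. Replicate 4 of the miR-29b input was the lowest, the opposite of its place for Cav1 and Cav2. The miR-29b pulldown held less Ptrf than its own input (log2 −0.76 ± 0.19 SE, edgeR adjusted p = 0.00342), with 23.2% of all genes passing as lower, and the libraries overlapped through that replicate. The mimic-specific change was −1.19 ± 0.27 (log2; edgeR adjusted p = 0.00398), with 9.21% of all genes passing as lower. It was −1.28 in replicates 1 to 3 (edgeR adjusted p = 2.35e-05), and missed the threshold in replicates 1, 2 and 4 (log2 −1.18, edgeR adjusted p = 0.0621) and with the authors' library totals (log2 −0.87, edgeR adjusted p = 0.0682). With those totals its fall below the input also missed it (log2 −0.49, edgeR adjusted p = 0.0978).

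**Figure D1:**
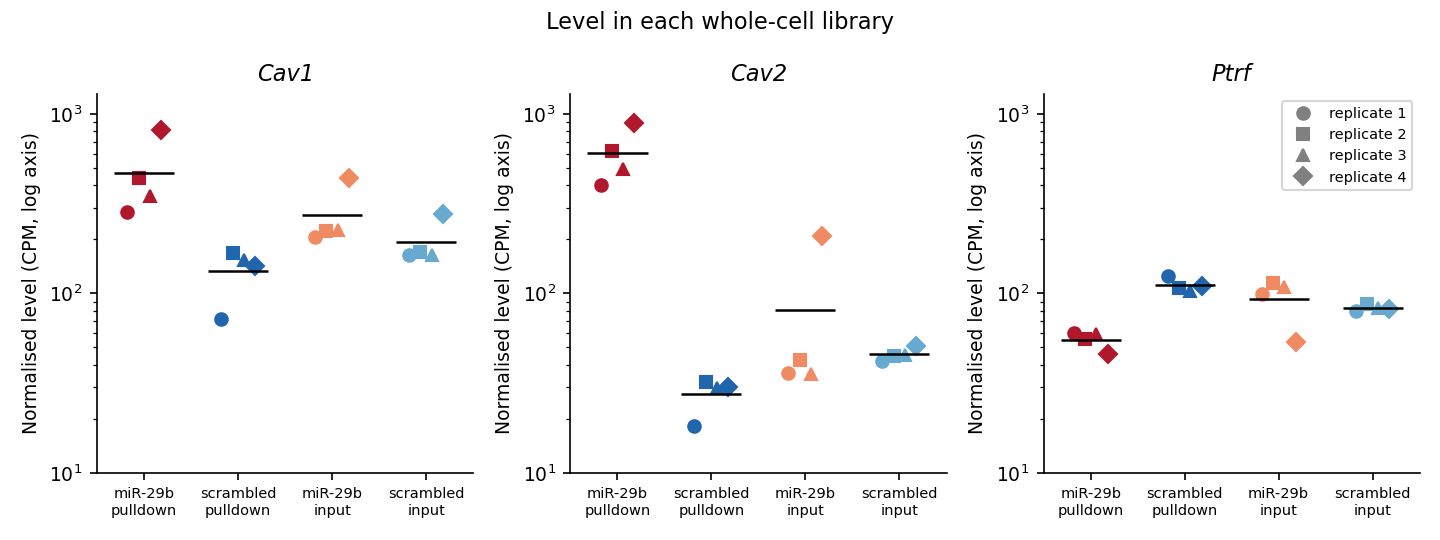
Level of Cav1, Cav2 and Ptrf in each of the 16 whole-cell libraries (CPM, log axis), with 1 symbol per replicate number and a line at the mean of 4 libraries. Cav2 sits at 400.5 to 893.7 CPM in the miR-29b pulldown, against 18.27 to 32.26 CPM in the scrambled pulldown, and Ptrf at 45.79 to 60.23 CPM and 103.4 to 125 CPM.

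The scrambled pulldown against its own input shows how far a pulldown departs from input without the miR-29b sequence. These libraries, and the inputs, also enter the contrasts on which Cav2 was picked, so its values there are descriptions. Neither Cav1 nor Ptrf passed over all 16 libraries, while 18.5% of all genes passed as higher and 17.4% as lower. Cav2 was lower in all 4 scrambled pulldown libraries than in any scrambled input (log2 −0.73 ± 0.48 SE, and −0.70 in replicates 1 to 3). Ptrf lay above its inputs in every scrambled pulldown library (log2 0.43 ± 0.19 SE, edgeR adjusted p = 0.0934), and passed as higher in replicates 1 to 3 (log2 0.44, edgeR adjusted p = 0.00408), when leaving out miR-29b input replicate 4 (log2 0.40, edgeR adjusted p = 0.014) and in the fit of only these groups (log2 0.43, edgeR adjusted p = 0.0127). The libraries overlapped for Cav1, at −0.53 ± 0.36 (log2; edgeR adjusted p = 0.263).

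Between the inputs, which ask whether the mimic altered the level of a transcript, neither Cav1 nor Ptrf passed (edgeR adjusted p = 1 for each). In all, 0.0542% of genes passed as higher and 0% as lower, or 7 genes and 0, while DESeq2 called 46. The log2 values of miR-29b over scrambled were 0.50 ± 0.36 for Cav1, 0.82 ± 0.48 for Cav2 and 0.17 ± 0.19 for Ptrf. The sign for Cav2 rested on 1 library, since after leaving out miR-29b input replicate 4 it was −0.31, and in replicates 1 to 3 it was −0.23. For Cav1 the 3 lysed replicates lay at 205 to 224.3 CPM with miR-29b and at 163.2 to 171 CPM with the scrambled mimic without overlap, at a log2 value of 0.37 that did not pass (edgeR adjusted p = 0.559). Ptrf did not overlap there either, at 98.8 to 113.5 CPM with miR-29b and 79.97 to 87.13 CPM with the scrambled mimic. Its log2 value of 0.34 did not pass (edgeR adjusted p = 0.138).

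Scaling affected the balance of the whole comparison more than the order of these genes. Of all genes that passed in the mimic-specific comparison 64.8% were higher, against 40.9% with upper-quartile factors and 89.7% with the authors' library totals, and the median over all genes moved to −0.39 and 0.21, from −0.10 with TMM. Between the pulldowns the higher share was 53.9%, against 36.2% and 77.7%, and for the miR-29b pulldown over its input 55.1%, against 41% and 73%. Under all 3 scalings the mimic-specific value was highest for Cav2, positive for Cav1 and negative for Ptrf.

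**Figure D2:**
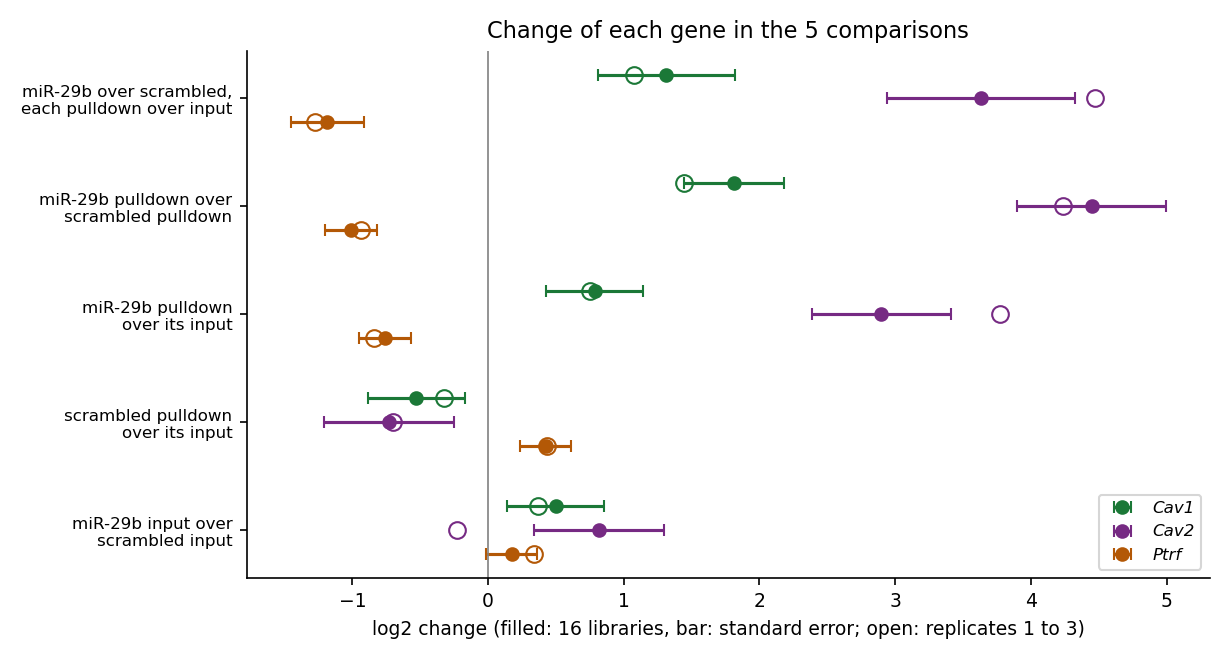
The log2 change of each gene in the 5 comparisons, with the first-named group over the second. Filled points with bars are the fit over 16 libraries and its standard error, and open circles are replicates 1 to 3. Cav2 lies at 3.63 and Ptrf at −1.19 in the mimic-specific comparison, and the open circle of Cav2 is on the other side of 0 for the inputs.

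Ratios of counts within a library need no scaling between libraries, but they are not per transcript length. Cav2 had 1.402, 1.424, 1.426 and 1.098 counts per Cav1 count in the miR-29b pulldown, against 0.253, 0.191, 0.192 and 0.213 in the scrambled pulldown. The ratio was 0.176, 0.192, 0.159 and 0.473 in the miR-29b input and 0.258, 0.262, 0.279 and 0.185 in the scrambled input. Cav2 counts thus exceeded Cav1 counts in each miR-29b pulldown library and in no other whole-cell library. The mean ratio was 6.31-fold higher in the miR-29b pulldown than in the scrambled one, a description since Cav2 was picked on this contrast.

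For Ptrf over Cav1 the ratio was 0.211, 0.128, 0.170 and 0.0562 in the miR-29b pulldown, against 1.73, 0.632, 0.674 and 0.781 in the scrambled pulldown. It was 0.482, 0.513, 0.483 and 0.122 in the miR-29b input and 0.489, 0.510, 0.508 and 0.296 in the scrambled input. The groups did not overlap between the pulldowns (log2 difference −2.78, exact permutation p = 0.0286, two-sided, 0.0857 after adjustment over 6 ratio tests), nor between the scrambled pulldown and its input (log2 difference 0.99, exact permutation p = 0.0286, adjusted 0.0857). The smallest p that 4 against 4 libraries can give is 0.0286, so no ratio test could pass alone after adjustment. The miR-29b pulldown over its input gave −1.45 with the libraries permuted freely (exact permutation p = 0.114, adjusted 0.229). In these paired groups the ratio was lower in the pulldown in 4 of 4 pairs, with log2 differences of −2.002 to −1.11 (paired exact p = 0.125, the smallest that 4 pairs can give). The inputs gave −0.34 (exact permutation p = 0.543, adjusted 0.651). For Cav2 over Cav1 the scrambled pulldown over its input gave −0.20 and the inputs −0.12, as descriptions.

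**Figure D3:**
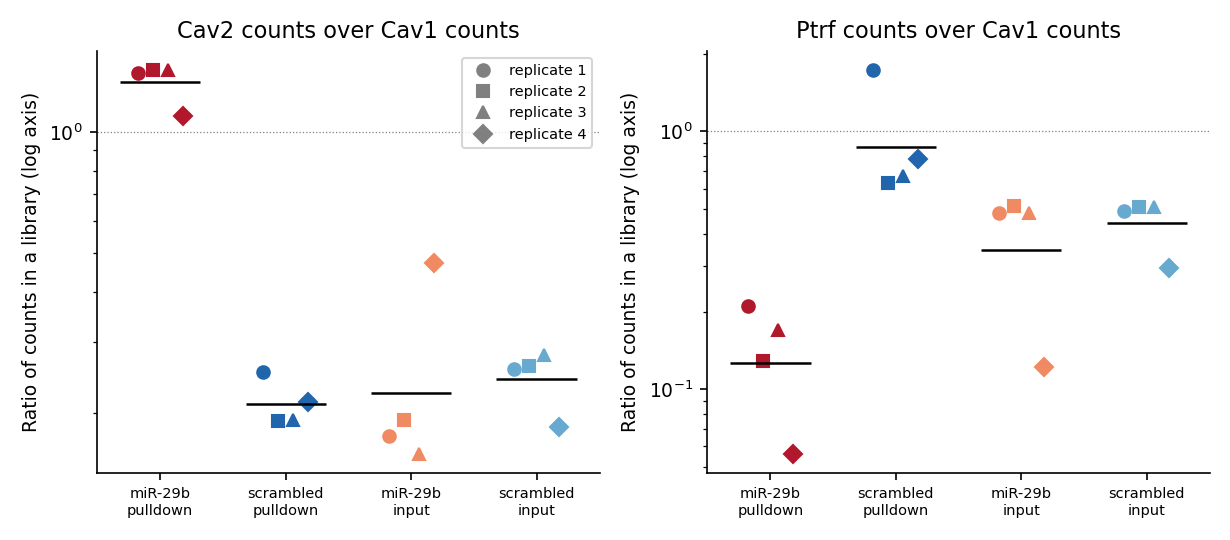
Ratio of Cav2 counts to Cav1 counts and of Ptrf counts to Cav1 counts in each whole-cell library (log axis), with 1 symbol per replicate number and a line at the geometric mean of 4 libraries. Cav2 over Cav1 is 1.098 to 1.426 in the miR-29b pulldown and 0.191 to 0.253 in the scrambled pulldown.

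The authors' deposited table scores each gene per replicate by PE, which equalled the difference between the miR-29b pulldown and the mean of both inputs, divided by the scrambled pulldown, on their CPM. In the authors' deposited table Cav2 had PE values of 33.0, 21.1, 17.6 and 31.98 in replicates 1 to 4, which ranked 27th, 94th, 80th and 25th of 13534 genes. Cav1 had 2.59, 1.95, 1.35 and 4.77 in the authors' deposited table, and ranked highest, at 808th, in replicate 4. Ptrf had −0.319, −0.243, −0.238 and −0.0187 there, below 0 in every whole-cell replicate. For the cytoplasm the authors' deposited table gives PE values of 16.06 for Cav2, the 18th highest of 11568 genes, −1.417 for Cav1, 9936th, and −1.519 for Ptrf. For nuclei the authors' deposited table gives 0.639 for Cav2, 0.266 for Cav1 and 0.112 for Ptrf. The authors' deposited table marks Cav2 as significant in all lysed replicates (with 5.05% of genes), in the intact one (7.23%), as a positive hit (4.19%) and in the cytoplasmic fraction (2.04% of 11568 genes). Cav1 carries only the mark for the intact replicate among these in the authors' deposited table, and Ptrf carries none.

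Of 12 other coat and accessory genes 7 were tested, and Cav3, Sdpr, Murc, Pacsin1 and Ror1 had no line under these names. In the mimic-specific comparison 1 rose and 1 fell (14.3% each, against 17% and 9.21% of all genes) and 5 did not pass, with a median log2 change of 0.15 over the list and −0.10 over all genes. Ehd1, an ATPase of endocytic recycling, rose 1.89-fold (log2 0.92 ± 0.21 SE, edgeR adjusted p = 0.00375). Pacsin3, a membrane-bending F-BAR protein, fell by 1.67 ± 0.50 (log2; edgeR adjusted p = 0.0216), with low means of 2.35 CPM in the miR-29b pulldown against 7.82 CPM in the scrambled one. Ehd2, the ATPase at the caveolar neck, had 180.8 ± 30.6 CPM in the miR-29b pulldown, against 100.5 ± 27.7 CPM in the scrambled pulldown (SD, n = 4 each), and its mimic-specific log2 value of 0.73 did not pass (edgeR adjusted p = 0.0647). Prkcdbp, the cavin-3 gene, lay at −0.05 (edgeR adjusted p = 0.892), with 65.2 ± 10.5 CPM and 65.3 ± 5.18 CPM in the same groups. In replicates 1 to 3 the list had 2 higher and 1 lower of 7, where 24.4% of all genes were higher and 19.1% lower, and in replicates 1, 2 and 4 it had 0 each way, where 7.78% and 1.81% of all genes passed.

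Of 17 tested partners and clients of caveolins 4 were higher and 2 lower (23.5% and 11.8%, against 17% and 9.21% of all genes), and 11 did not pass (median log2 −0.02). The coat and partner shares were thus near those of all genes. Egfr, Cd36 and Slc2a4 had no line. Itgb1, the beta-1 integrin, rose 2.52-fold (log2 1.33 ± 0.21 SE, edgeR adjusted p = 0.000283), with 185.9 to 220.5 CPM in the miR-29b pulldown, against 55.77 to 73.99 CPM in the scrambled pulldown. Pdgfrb, a receptor for platelet-derived growth factor, rose 3.04-fold and Csk, the kinase that restrains Src, 2.49-fold (edgeR adjusted p = 0.00312 and 0.00162). Dnm2, the dynamin that severs endocytic vesicles, fell by 1.51 ± 0.26 (log2; edgeR adjusted p = 0.00045). In replicates 1 to 3 there were 5 higher and 4 lower (29.4% and 23.5%, against 24.4% and 19.1% of all genes). In replicates 1, 2 and 4 there were 2 higher and 1 lower (11.8% and 5.88%, against 7.78% and 1.81% of all genes).

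Flotillins and other raft proteins, which mark cholesterol-rich membrane outside caveolae, had 2 higher and 3 lower of 7 tested (28.6% and 42.9%, against 17% and 9.21% of all genes; median log2 −1.03). The flotillin gene Flot2 was 2.60-fold higher (edgeR adjusted p = 0.00449), while the other flotillin gene, Flot1, was lower (log2 −1.24, edgeR adjusted p = 0.02). Cd44, the hyaluronan receptor, rose 3.37-fold (edgeR adjusted p = 0.00416) and Thy1, a glycolipid-anchored surface protein, fell by 1.65 ± 0.22 (edgeR adjusted p = 7.41e-05). Gpc1, the heparan sulfate proteoglycan glypican-1, fell by 1.03 ± 0.27 (edgeR adjusted p = 0.0105). Of 19 tested genes of the clathrin route 2 rose and 6 fell (10.5% and 31.6%; median log2 −0.43), and Amph had no line. Picalm, a clathrin assembly protein, rose 2.64-fold (edgeR adjusted p = 9.32e-05). The intersectin gene Itsn1, the clathrin light chain gene Cltb and the adaptor subunit gene Ap2m1 fell by 0.99, 1.10 and 1.21 (log2; edgeR adjusted p = 0.00245, 0.00276 and 0.00477). In replicates 1 to 3 the rafts had 2 higher and 4 lower (28.6% and 57.1%) and the clathrin route 5 and 9 (26.3% and 47.4%). The shares of all genes in that setting were 24.4% and 19.1%. In replicates 1, 2 and 4 the rafts had 0 higher and 1 lower (0% and 14.3%) and the clathrin route 1 and 1 (5.26% each), against 7.78% and 1.81% of all genes.

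**Figure D4:**
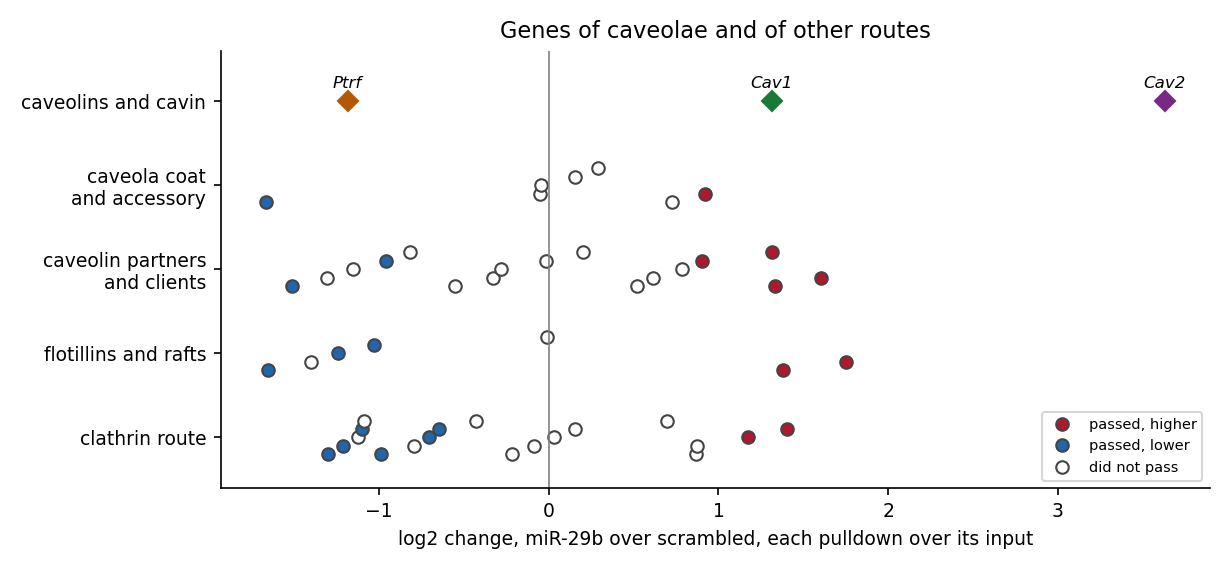
Mimic-specific log2 change of the 3 members, as diamonds, and of each tested gene of 4 lists, as circles filled red or blue where the gene passed as higher or lower at an edgeR adjusted p under 0.05. Cav2, which was picked for strong recovery with miR-29b, is at 3.63, to the right of every gene of the lists, so its place is only a description.

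Genes whose levels followed each member most closely over the 16 libraries were taken from 9047 genes of at least 5 CPM on average. For Cav2 they were Ccdc71l (Pearson r = 0.9945), the deubiquitinase gene Usp46 (0.9944) and the RNA phosphatase gene Dusp11 (0.9942). Dusp11 averaged 689.5 CPM in the miR-29b pulldown, against 73.24 CPM in the scrambled pulldown, and 130.4 CPM and 90.32 CPM in the miR-29b and scrambled inputs. In the authors' deposited table Ccdc71l and Dusp11 are marked as positive hits, and none of the 3 is marked with a predicted site. For Cav1 they were Cbfb, a subunit of the core-binding transcription factor (0.97), the adenylate kinase gene Ak4 (0.96) and the thiamine transporter gene Slc19a2 (0.96). For Ptrf they were the flotillin gene Flot1 (0.97), the UDP-xylose synthase gene Uxs1 (0.95) and the translation initiation factor gene Eif3b (0.94). The members themselves correlated at 0.87 between Cav2 and Cav1, −0.87 between Ptrf and Cav1 and −0.94 between Ptrf and Cav2. These libraries share groups and depth, so the values are descriptions and no p is given. Genes picked for following a member share its pattern by selection, so their levels and marks are descriptions too.

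Of the tested genes within 300 kb of a member, 0 of 3 passed around the caveolins and 4 of 19 around Ptrf in the mimic-specific comparison. Over all genes, 17% passed as higher and 9.21% as lower there. The 4 around Ptrf were Ghdc (log2 1.69) and Retreg3 (1.24), which were higher, and Stat5a (−1.21) and Plekhh3 (−0.97), which were lower (edgeR adjusted p = 0.021, 0.0356, 0.0368 and 0.00643). Tes, a focal adhesion gene on the far side of Cav2 from Cav1, was at 0.75 ± 0.33 in the mimic-specific comparison (log2, edgeR adjusted p = 0.109). On the other side of Cav1, the hepatocyte growth factor receptor gene Met was at −0.23 ± 0.24 and the actin capping gene Capza2 at −0.21 ± 0.21 (edgeR adjusted p = 0.529 and 0.508). Next to Ptrf, the transcription factor gene Stat3 was at −0.33 ± 0.34 (edgeR adjusted p = 0.521) and the proton pump subunit gene Atp6v0a1 at −1.44 ± 0.62 (edgeR adjusted p = 0.103), beside −1.19 for Ptrf itself.

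The fraction libraries ask where in the cell recovery occurs. Each is a single library, so values carry only 95% intervals of counting error and no test. The nuclear-retained RNAs Malat1 and Neat1 were 190.7-fold and 102.6-fold higher in the nuclear than in the cytoplasmic miR-29b input. In the miR-29b pulldowns the same ratios were 7.44 and 4.13, and in the scrambled pulldowns 4.18 and 2.65. Malat1 had 5734 CPM in the cytoplasmic miR-29b pulldown, against 258.7 CPM in its input. With the scrambled mimic it had 8728 CPM in the cytoplasmic pulldown, against 240.1 CPM in the input. The nuclear over cytoplasmic log2 ratio of Cav2 was −3.87 in the miR-29b pulldown, farther from 0 than the −2.47 in its input. The cause of these shifts was not tested.

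Cav2 stood out in the cytoplasm. It had 377.5 CPM (364.4 to 390.9) in the cytoplasmic miR-29b pulldown, against 22.69 CPM (18.2 to 27.96) in the scrambled one, with inputs of 83.21 and 86.13 CPM. In nuclei it had 25.48 CPM (22.23 to 29.07) and 15.94 CPM (13.18 to 19.1), with inputs of 14.65 and 15.16 CPM. The counting intervals of the pulldowns did not overlap in either fraction. The pulldown difference was 4.03 on the log2 scale (3.72 to 4.34), 15th of 11568 genes, in the cytoplasm and 0.66 (0.34 to 0.99), 495th, in nuclei. The mimic-specific value was 0.71 in nuclei and 4.08, the 10th highest, in the cytoplasm.

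For Cav1 the cytoplasmic pulldowns held 566.8 CPM with miR-29b and 96.95 CPM with the scrambled mimic, and the cytoplasmic inputs 626.3 and 348.8 CPM. The miR-29b pulldown was therefore slightly below its own input (log2 −0.14, −0.19 to −0.09) while being 5.82-fold above the scrambled pulldown, which itself lay far below its input (log2 −1.84). In nuclei Cav1 had 134.1 CPM in the miR-29b pulldown, against 85.81 CPM in the scrambled pulldown, and 126.2 and 85.09 CPM in the inputs. The nuclear mimic-specific value was 0.08 (−0.10 to 0.25), against 1.70 (1.54 to 1.86) in the cytoplasm. In both fractions the miR-29b input exceeded the scrambled input for Cav1, by 0.57 in nuclei and 0.84 in the cytoplasm on the log2 scale.

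Ptrf had 102.4 CPM in the cytoplasmic miR-29b pulldown, against 165.3 CPM in the scrambled one, and 234.1 and 176.8 CPM in their inputs. In nuclei it had 129.5 and 159.6 CPM in the pulldowns and 110.3 and 99.36 CPM in the inputs. Its mimic-specific value was negative in both, at −0.45 (−0.61 to −0.30) in nuclei and −1.09 (−1.26 to −0.93) in the cytoplasm. All 3 transcripts were lower in nuclei than in the cytoplasm in the inputs, with miR-29b input log2 ratios of −2.31 for Cav1, −2.47 for Cav2 and −1.08 for Ptrf and scrambled input ratios of −2.03, −2.47 and −0.83. Listed totals in place of TMM shifted the median gene by 0.70 and 0.56 in these ratios and left all 6 negative.

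**Figure D5:**
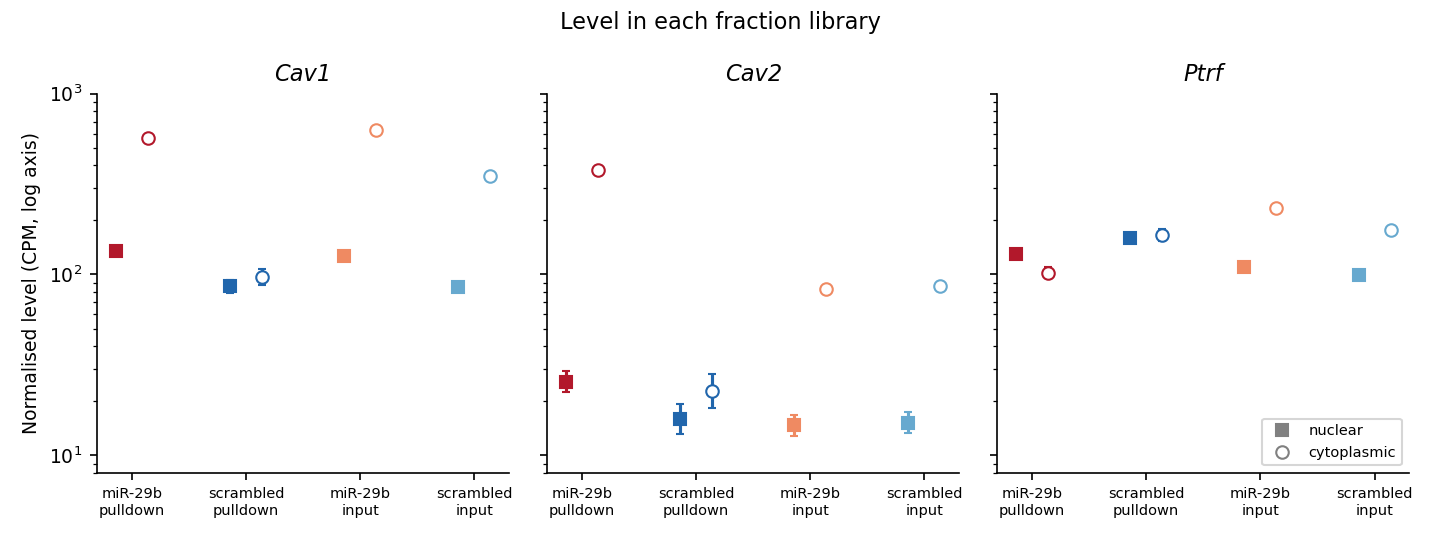
Level of Cav1, Cav2 and Ptrf in each of the 8 fraction libraries (CPM, log axis), with filled squares for nuclear and open circles for cytoplasmic libraries and bars for the 95% counting interval. Cav2 is at 377.5 CPM in the cytoplasmic miR-29b pulldown and at or under 86.13 CPM in every other fraction library.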

How the data were processed

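RNA was sequenced from 16 whole-cell and 8 fraction libraries of NIH3T3 cells, primed with random hexamers and oligo-dT per the labels. STAR 2.3.0 and mm10 were used per the submitters' processing notes; how reads were counted, with which strand setting, and how genes were selected is not given in the sources used here. Whole-number counts per gene were deposited by the authors and tested as given. The authors also deposited CPM, which equal the count plus 1 over a library total larger than the listed counts (48.9% to 87.3% of it in whole cells, 37.4% to 78.9% in fractions). The authors' deposited PE score was matched by the formula given in the report for all 13534 and 11568 genes within 0.0001. Of 14052 whole-cell lines 518 repeats were dropped. The tables of the 2 fractions were the same file (0 bytes differing), so 1 of them was read.

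Counts were fitted with edgeR 4.0.16 in R 4.3.3 (filterByExpr, TMM, quasi-likelihood test) in 1 model of 4 groups over 16 libraries. The filter kept 12915 genes and removed 619, and the common dispersion was 0.106. P-values were two-sided and adjusted by Benjamini-Hochberg over all genes for each of the 5 comparisons (threshold 0.05). Count ratios were tested by exact permutation (scipy 1.17.1). Fraction ratios used TMM and a prior count of 5. Counting intervals are exact Poisson at 95% for levels and cover counting error only. The pipeline was tested on simulated counts. Without transcript lengths, levels were not compared between genes except as counts within a library. Tests planned for Cav2 between the scrambled pulldown and the inputs are not reported, since these libraries enter the contrasts it was picked on; its 2 ratio tests stay in the adjusted family of 6.

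Named genes were the members, the 3 genes of highest Pearson r with each (log2 CPM, prior count 2), and up to 4 genes per list, smallest p first, among those that passed. Lpl and other single markers, Ehd2, Prkcdbp, Flot1 among the rafts and the neighbouring genes were added after values were seen. The members and lists were chosen with earlier results of these data known. Libraries of the same number were treated as pairs if each such pair deviated together from its group means at a correlation above 0.1. The miR-29b pulldown met this with its input (0.379 to 0.70), as did the inputs with each other (0.506 to 0.717); the scrambled pulldown did not meet it with its input or with the miR-29b pulldown. The alternatives tried were DESeq2 1.42.0, RLE factors, upper-quartile factors, the authors' library totals, no filter or 2 CPM in 4 libraries, a replicate block, only the groups compared, replicates 1 to 3, replicates 1, 2 and 4, and leaving out each library.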

Additional observations from a re-analysis of the deposited data

Results flagged for a closer look

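Of 12 sets of 4 libraries, 1 for each member and group, 3 held a library far from the other 3, all of them replicate 4 of an input, and chance alone sets apart about 1 in 20 such sets. Cav1 stood at 442.2 CPM in replicate 4 of the miR-29b input, with the others at 205 to 224.3 CPM. In the scrambled input it stood at 276.3 CPM in replicate 4, with the others at 163.2 to 171 CPM. Cav2 stood at 208.9 CPM in replicate 4 of the miR-29b input, with the others at 35.57 to 42.5 CPM. That library was made from 6 ng of RNA and belongs to the set the authors call intact; their part in these values was not tested.

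Ptrf moved in opposite directions in the fractions. Over its input, the miR-29b pulldown was at 0.23 on the log2 scale in nuclei (0.12 to 0.34, counting error) and at −1.189 in the cytoplasm (−1.30 to −1.08). With listed totals in place of TMM the nuclear value was 0.071. The scrambled pulldown over its input gave 0.68 in nuclei and −0.10 in the cytoplasm (−0.22 to 0.03). There was 1 library for each value, and the difference was not tested.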

How the results depend on the processing

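Of 387 recomputed values of member changes, 362 kept their direction and, where tested, their side of the threshold. For Cav2 in comparisons with the miR-29b pulldown, which were not tested, they stayed within the SD of libraries within groups. Of the rest, 17 crossed to a call (11 of Cav1, 3 of Ptrf and 3 of Cav2, whose calls are not read), 3 of Ptrf lost one, 3 moved and 2 changed sign. Cav1 in the mimic-specific comparison passed with DESeq2 (1.32), the authors' totals (1.59), the replicate block (1.26, edgeR adjusted p = 0.00675, though these groups are not all paired) and replicates 1 to 3 (1.08). For the miR-29b pulldown over its input, Cav1 passed with the authors' totals (1.14), the block (0.75) and replicates 1 to 3 (0.75). Ptrf lost its calls with the authors' totals (−0.87 mimic-specific, −0.49 over input) and its mimic-specific call with replicates 1, 2 and 4 (−1.18). For the scrambled pulldown over its input, Ptrf passed with only the groups compared (0.43) and with replicates 1 to 3 (0.44), where Cav2 was at −0.72 and −0.70. With replicates 1 to 3 Cav2 moved to 4.47 in the mimic-specific comparison and turned to −0.23 between inputs. The cause of these shifts was not tested.

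Leaving out 1 library at a time, Cav1 ranged from 0.92 to 1.74 in the mimic-specific comparison, from 1.41 to 1.99 between pulldowns and from 0.39 to 1.16 for the miR-29b pulldown over its input. Cav2 ranged from 3.38 to 4.80, from 4.20 to 4.60 and from 2.64 to 4.03 in the same comparisons, from −0.82 to −0.62 for the scrambled pulldown over its input and from −0.31 to 1.08 between inputs, where leaving out miR-29b input replicate 4 gave −0.309. Ptrf ranged from −1.31 to −1.03, from −1.05 to −0.92 and from −0.92 to −0.64, and from 0.33 to 0.46 for the scrambled pulldown over its input. Ptrf over Cav1 counts between inputs ranged from −0.53 to 0.16 (0.162 when miR-29b input replicate 4 was left out) and Cav2 over Cav1 counts from −0.47 to 0.05 (0.003 and 0.051 when miR-29b input replicate 1 or 3 was left out). The input comparison called 7 genes, and 1 to 12 without 1 library.

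The number of genes called in the mimic-specific comparison, 3382, was 5584 with replicates 1 to 3 and 1237 with replicates 1, 2 and 4; for the scrambled pulldown over its input it was 4638, and 2090 with replicates 1, 2 and 4. Between inputs it was 46 with DESeq2, 1 with the authors' totals, 11 with the replicate block, 0 with only the groups compared, 177 with replicates 1 to 3 and 0 with replicates 1, 2 and 4. The replicate block left every other call of a member as it was.

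In the fractions, listed totals in place of TMM gave, for Cav1, Cav2 and Ptrf in that order where 3 values stand, nuclear over cytoplasmic values of −1.60, −1.77 and −0.37 for the miR-29b input, −1.46, −1.91 and −0.26 for the scrambled input, −1.11, −2.90 and 1.30 for the miR-29b pulldown, and 0.57, 0.23 and 0.70 for the scrambled pulldown, where all 3 changed sign. For the cytoplasmic miR-29b pulldown over its input they were −0.56, 1.76 and −1.60. The nuclear pulldown over input turned to −0.071 for Cav1 with miR-29b and to −0.099 and −0.039 for Cav1 and Cav2 with the scrambled mimic, and the nuclear input difference of Cav2 to 0.031. Ptrf moved to 0.071 for the nuclear miR-29b pulldown over its input, to −0.38 for the cytoplasmic scrambled pulldown over its input and to −0.88 between cytoplasmic pulldowns. Cav1 moved to −2.13, 2.35 and 0.79 for the cytoplasmic scrambled pulldown over its input, the cytoplasmic pulldowns and the cytoplasmic inputs. With 1 library per fraction these shifts cannot be set against replicate error.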
